A study of Homo sapiens with 2 samples.

Results

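Mitochondrial ribosomal protein (MRP) genes are nuclear genes that encode the protein subunits of the ribosome inside mitochondria. Members were all non-control probes of the array whose gene name was MRPL or MRPS followed by a number and an optional letter. The rule found 107 probes among 41000, and these named 76 genes, 47 of the large subunit series (MRPL) and 29 of the small subunit series (MRPS). The rule itself uses names and no expression value. Names on the array are those of its design. MRPS36 is listed by RefSeq as KGD4 today and belongs to the 2-oxoglutarate dehydrogenase complex, and the proteins of MRPS30 and MRPS18A sit in the large subunit, but all were kept under the array's names.

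The mitochondrial ribosome translates the mRNAs of mitochondrial DNA, all of which code for subunits of the respiratory chain and ATP synthase. Its proteins are made in the cytosol, imported and assembled on rRNA transcribed from mitochondrial DNA, so its supply joins both genomes. Some subunits descend from bacterial ribosomal proteins and others are found only in mitochondria. Transcription of many nuclear genes for mitochondrial proteins is known to use ETS-family factors such as GABP, and YY1 and NRF1.

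RNA levels were compared in PC3 cells, a long-established line from a prostate cancer metastasis, after knockdown of SUB1, a transcriptional coactivator. Each of 2 dual-colour Agilent arrays on 1 slide set PC3 cells given 1 SUB1 siRNA duplex (Cy5) against PC3 cells given non-targeting (Non-T) siRNA (Cy3). The cells of both groups were transfected a second time a day after the first and harvested at 72 h from the first transfection, and total RNA was labelled. Each siRNA had 1 array with no dye swap, so neither comparison has a replicate, and dye and knockdown cannot be told apart on these arrays. Both comparisons rest on Non-T cells in the same dye. Whether the arrays carried the same Non-T extract is not given in the sources used here. The transfection was transient, and on bulk RNA a lower level in every cell cannot be told apart from a lower share of cells with the transcript.

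On the brightest SUB1 probe the intensity was 9433 with Non-T siRNA and 958 with siRNA 1, and 7027 with Non-T siRNA and 733 with siRNA 2, which gave log2 ratios of -3.30 and -3.26. Its other kept probes gave -3.75 and -3.50, -3.35 and -3.16, and, on the dimmest, -1.81 and -1.57. Of the 41000 probes, 25673 were kept as above background, and they stood for 19218 genes. No gene spot was saturated. All 5 genes listed as markers of PC3 cells (KRT8, KRT18, EPCAM, CD44 and VIM) had a probe well above background in the Cy3 channel of both arrays. Of 7 markers of other cell types 4 had such a probe, and the highest intensity of each gene summed over that list was 794 and 720 in the Non-T channels and 884 and 749 in the siRNA channels. PTPRC, ACTA2 and VWF were not well above background in Non-T cells, while CD3E, PECAM1, CHGA and COL1A1 were. COL1A1, a collagen gene of fibroblasts, read 152.5 (Non-T) and 241 (siRNA 1), and 130.5 (Non-T) and 178 (siRNA 2), with log2 ratios of 0.66 and 0.45. The PC3 marker CD44 had log2 ratios of -0.83 and -1.04. KLK3, an androgen-dependent prostate gene, went against the line's label on 1 of its 3 probes, with Cy3 intensities of 21837 and 18172, while its other probes read between 61 and 90 in every channel. The part of these markers in the results was not tested.

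All 76 MRP genes had at least 1 probe above background, with 105 of the 107 probes kept. The exceptions were 1 probe each of MRPL43 and MRPS30, whose other probes were kept. Each member probe was spotted once on each array and none was flagged as an outlier. In Non-T cells the intensities of the genes' brightest probes ran from 215 to 15748 (median 3056) on the array of siRNA 1, and from 192 to 13699 (median 2527) on that of siRNA 2. These intensities are background-corrected and loess-normalised within each array. They describe the probes and give no order of transcript abundance.

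Promoter windows are shown for a few genes that are described in detail. A log2 ratio of at least 0.32 in size, a smaller step than 2-fold, served as a second threshold. The genes are the 4 past it on the lower side on each array (MRPL11, MRPL3, MRPS12 and MRPL12), the 1 past it on the higher side on each (MRPL54), and the gene whose probes disagreed most (MRPS10). Each is RefSeq sequence of GRCh38.p14, written on the gene's own strand from 220 bases before the annotated start to 30 bases after it. They lie at chr11:66438819-66439068 (minus strand), chr3:131502942-131503191 (minus), chr19:38930724-38930973 (plus), chr17:81703147-81703396 (plus), chr19:3762462-3762711 (plus) and chr6:42217832-42218081 (minus). Capitals mark exact matches, in either orientation, to the ETS letters CCGGAAG or the YY1 letters AAGATGGC.
MRPL11: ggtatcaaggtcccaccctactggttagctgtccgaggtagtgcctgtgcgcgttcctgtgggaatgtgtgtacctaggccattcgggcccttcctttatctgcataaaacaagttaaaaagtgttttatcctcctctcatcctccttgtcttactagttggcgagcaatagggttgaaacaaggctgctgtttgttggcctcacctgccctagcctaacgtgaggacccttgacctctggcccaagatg
MRPL3: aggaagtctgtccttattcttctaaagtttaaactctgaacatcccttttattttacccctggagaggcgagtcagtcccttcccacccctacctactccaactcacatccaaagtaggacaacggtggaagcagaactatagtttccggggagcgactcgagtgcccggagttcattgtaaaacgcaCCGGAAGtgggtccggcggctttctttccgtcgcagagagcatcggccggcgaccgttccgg
MRPS12: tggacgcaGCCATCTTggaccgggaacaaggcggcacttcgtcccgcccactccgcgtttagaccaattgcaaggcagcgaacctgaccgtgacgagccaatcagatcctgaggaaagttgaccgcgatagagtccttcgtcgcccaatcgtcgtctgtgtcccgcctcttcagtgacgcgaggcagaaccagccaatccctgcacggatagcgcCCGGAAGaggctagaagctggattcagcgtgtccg
MRPL12: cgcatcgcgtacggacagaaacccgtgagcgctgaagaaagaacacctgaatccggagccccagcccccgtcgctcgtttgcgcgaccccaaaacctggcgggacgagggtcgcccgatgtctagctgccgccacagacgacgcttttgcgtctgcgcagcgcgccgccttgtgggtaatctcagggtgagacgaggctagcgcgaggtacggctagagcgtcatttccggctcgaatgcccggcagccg
MRPL54: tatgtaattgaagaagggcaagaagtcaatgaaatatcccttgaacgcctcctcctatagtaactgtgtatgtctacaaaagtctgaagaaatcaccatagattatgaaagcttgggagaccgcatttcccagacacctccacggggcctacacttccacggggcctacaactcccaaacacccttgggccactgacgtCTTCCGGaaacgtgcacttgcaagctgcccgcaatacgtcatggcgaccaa
MRPS10: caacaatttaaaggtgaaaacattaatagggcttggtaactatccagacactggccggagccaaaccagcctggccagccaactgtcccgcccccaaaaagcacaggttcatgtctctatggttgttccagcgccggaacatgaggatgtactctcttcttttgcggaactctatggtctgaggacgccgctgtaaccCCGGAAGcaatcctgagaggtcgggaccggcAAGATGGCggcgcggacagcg

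In these windows the ETS letters stood 32 bases before the start of MRPL3, 5 before that of MRPS12, 21 before that of MRPL54 and 22 before that of MRPS10. The YY1 letters stood 212 bases before the start of MRPS12 and at position 10 after the start of MRPS10. MRPL11 and MRPL12 held neither in exactly these letters. The ETS letters were thus present before genes at both ends of the family's ratios.

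Of the 76 genes, 68 had a window of 250 bases before to 50 after the start, and the first window listed per gene was searched on both strands. The ETS letters were in 28 of 68 windows (41.2%), against 10.7% of the windows of all 27305 genes with one. The YY1 letters were in 20 (29.4%, against 3.03%), and 8 windows held both (11.8%, against 0.597%). The Sp1 letters GGGCGG were in 42 (61.8%, against 44.6%), the NRF1 letters (GCGCA, any base, GCGC) in 7 (10.3%, against 6.28%), the E-box letters CACGTG in 7 (10.3%, against 7.43%) and the TATA letters TATAAA in 3 (4.41%, against 12%). A match is a description of letters and not of a bound site.

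The 28 genes with the ETS letters had median log2 ratios of 0.06 with siRNA 1 and 0.01 with siRNA 2, and the 40 without had 0.02 and -0.01. The 20 genes with the YY1 letters had medians of 0.05 and -0.03, and the 48 without had 0.03 and 0.01. The 42 with the Sp1 letters had 0.03 and 0.01 against 0.03 and -0.01 for the 26 without, and the 7 with the NRF1 letters had 0.06 and -0.05 against 0.03 and 0.01 for the 61 without. The medians lay further apart for the 7 genes with the E-box letters (0.11 and 0.14, against 0.03 and -0.00 for the 61 without) and the 3 with the TATA letters (0.27 and 0.11, against 0.03 and 0.00 for the 65 without). No test was made of these differences.

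No MRP gene differed from Non-T cells by 2-fold with either siRNA. This threshold, which the study's methods set for a changed gene, was passed with at least 1 siRNA by 0 of 76 MRP genes, against 2.31% of all genes kept. The probes of the MRP genes were brighter, with a median log2 intensity of 11.5 against 8.03 for all genes kept. The part of brightness in the comparisons with all genes was not tested. The largest single log2 ratios were 0.58 for MRPL49 and -0.62 for MRPS35, both with siRNA 2. With siRNA 1 the 76 ratios ran from -0.52 to 0.53 with a median of 0.03 and an SD over genes of 0.22, and all genes had a median of 0.02 and an SD of 0.30. With siRNA 2 they ran from -0.62 to 0.58 with a median of -0.02 and an SD of 0.26, and all genes had a median of 0.02 and an SD of 0.34. With median centring in place of loess both medians lay above 0, at 0.31 and 0.24, while those of all genes moved to 0.13 and 0.12.

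The mean of both siRNAs was tested against 0 with limma over all genes kept. No MRP gene passed a Benjamini-Hochberg adjusted p of 0.05, against 0.0052% of all genes (1 gene), and the adjusted p-values of the 76 ran from 0.13 to 0.99. At an unadjusted p under 0.05 there were 11 MRP genes, 14.5% of the family, against 20.9% of all genes. Of these 7 were lower (9.21%, against 9.91%) and 4 higher (5.26%, against 11.0%). With median centring the count was 36, 1 lower and 35 higher, and with Feature Extraction's processed signals it was 3, 2 lower and 1 higher. Over all 19218 genes the counts under these settings were 5707 and 3902. With 1 array per siRNA this test treats the siRNAs as replicates and leaves out the spread of the Non-T cultures.

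**Figure D1:**
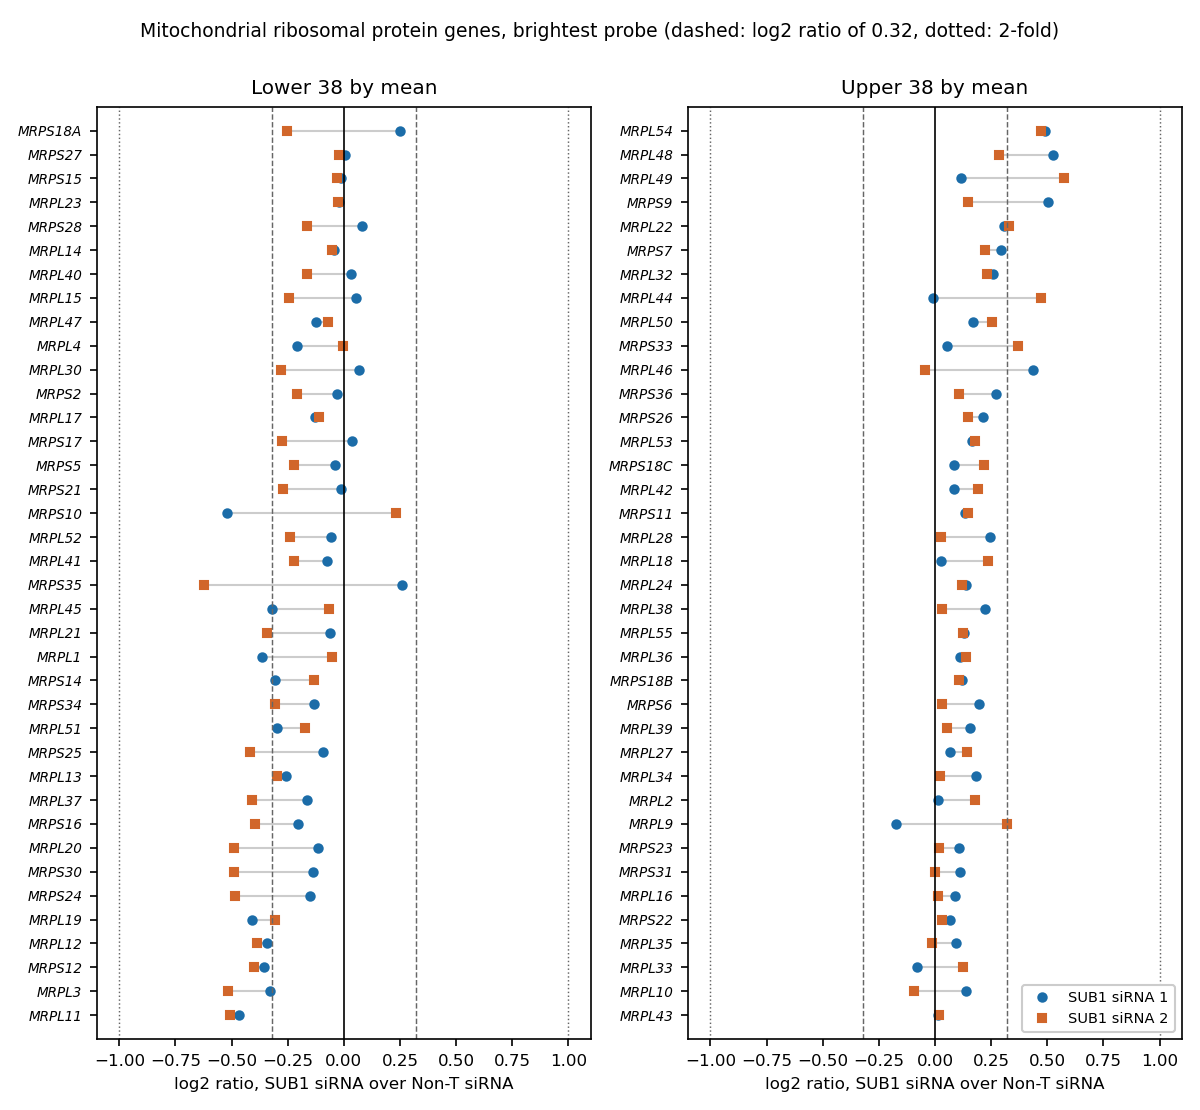
Log2 ratio of SUB1 knockdown over Non-T for each of the 76 MRP genes (horizontal axis, brightest probe), ordered by the mean of both siRNAs, with circles for siRNA 1 and squares for siRNA 2. All points lie inside the dotted 2-fold lines, and MRPL11, MRPL3, MRPS12 and MRPL12 at one end and MRPL54 at the other lie past the dashed lines at 0.32 with both siRNAs.

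At the second threshold, a log2 ratio of 0.32, 7 MRP genes were lower with siRNA 1 (9.21%, against 10.1% of all genes) and 4 were higher (5.26%, against 11.1%). With siRNA 2, 12 were lower (15.8%, against 12.5%) and 6 higher (7.89%, against 13%). On 52 of 76 genes neither siRNA reached it (68.4%, against 63.8%). With loess the shares of lower genes were near those of all genes and the shares of higher genes were below them, but with median centring siRNA 1 put 35 genes past it on the higher side and 0 on the other, and siRNA 2 put 30 and 2 there. Past it on the lower side on each array were 4 genes (5.26%, against 5.02%), and 1 gene was past it on the higher side on each (1.32%, against 4.68%). These counts became 0 lower and 23 higher with median centring, and 1 lower and 3 higher with the authors' table of log2 ratios. The shares of all genes past 0.32 under these alternatives are not given here. With median centring all genes also moved up, to medians of 0.13 and 0.12, and 31.5% of them lay below 0 with siRNA 1. Both arrays have Non-T cells as the denominator, so these counts do not rest on independent comparisons, and each array's own values are given for the genes named.

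The lowest mean belonged to the lateral stalk, the arm of the large subunit that recruits translation factors. MRPL11, at the base of the stalk, had intensities of 727.5 with Non-T siRNA and 527 with siRNA 1, and of 663 with Non-T siRNA and 467 with siRNA 2. The arrays were not scaled to each other, but both siRNA channels were below both Non-T channels, with log2 ratios of -0.47 and -0.51. The mean was -0.49 with a standard error (SE) of 0.09, 1.40-fold lower (limma adjusted p = 0.13).

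MRPL12, the stalk protein that contacts translation factors and is also known to bind the mitochondrial RNA polymerase, read 1410 (Non-T) and 1113 (siRNA 1) on one array and 1330 (Non-T) and 1017 (siRNA 2) on the other. Again both siRNA channels were below both Non-T channels. The log2 ratios were -0.34 and -0.39 (mean -0.36, SE 0.10, limma adjusted p = 0.16). MRPL10, which anchors MRPL12 to the ribosome, read 2404 (Non-T) and 2643 (siRNA 1), and 2010 (Non-T) and 1882 (siRNA 2). Its log2 ratios of 0.14 and -0.10 had opposite signs, and its second probe gave 0.03 and -0.16. The stalk thus held 2 genes at the low end and 1 near 0.

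Among the other homologues of bacterial proteins, MRPL3, a large subunit protein that reaches towards the peptidyl transferase centre, read 1938 (Non-T) and 1542 (siRNA 1), and 1798 (Non-T) and 1259 (siRNA 2). Its log2 ratios were -0.33 and -0.51 (mean -0.42, SE 0.10, limma adjusted p = 0.15). Its second probe gave -0.23 and -0.25, below 0 on each array but short of the second threshold.

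MRPS12, a protein of the decoding centre of the small subunit, read 6558 (Non-T) and 5120 (siRNA 1), and 5194 (Non-T) and 3940 (siRNA 2). The siRNA 1 channel was just below the Non-T channel of the other array. Its log2 ratios were -0.36 and -0.40 (mean -0.38, SE 0.09, limma adjusted p = 0.15), and those of its second probe were -0.24 and -0.28. The neighbouring gene SARS2, a mitochondrial seryl-tRNA synthetase gene that lies 181 bases away in GRCh38.p14, had log2 ratios of -0.08 and -0.15.

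The remaining genes among the 8 lowest means did not reach the second threshold with 1 of the siRNAs. MRPL19, a homologue at the interface of the subunits, had log2 ratios of -0.41 and -0.31 (limma adjusted p = 0.17). MRPS24, a small subunit homologue, had -0.15 and -0.48, MRPS30 had -0.14 and -0.49, and MRPL20, whose bacterial counterpart acts in early assembly, had -0.11 and -0.49. The second MRPL20 probe gave -0.18 and -0.52, close to the first on each array. In MRPS24, MRPS30 and MRPL20 only siRNA 2 reached 0.32, and with median centring the means of MRPS24 and MRPL20 were 0.05 and 0.05, above 0.

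MRPL54, a mitochondria-specific large subunit protein, had the highest mean. It read 789 with Non-T siRNA and 1108 with siRNA 1, and 670 with Non-T siRNA and 930 with siRNA 2. Both siRNA channels were above both Non-T channels, with log2 ratios of 0.49 and 0.47. The mean was 0.48 (SE 0.09), 1.40-fold higher (limma adjusted p = 0.13).

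MRPL48, a protein of the central protuberance at the top of the large subunit, followed with 660 (Non-T) and 951 (siRNA 1), and 566 (Non-T) and 691 (siRNA 2). Its log2 ratios were 0.53 and 0.29 (mean 0.41, SE 0.11, limma adjusted p = 0.16). MRPL22, which lines the exit tunnel for the new protein chain, had 0.31 and 0.33 (limma adjusted p = 0.18), MRPL32, whose maturation by the m-AAA protease precedes ribosome assembly, 0.26 and 0.23, and MRPS7, which organises the head of the small subunit, 0.29 and 0.22. The siRNAs lay within 0.07 of each other for MRPL22, MRPL32 and MRPS7. MRPS9, a small subunit homologue, had 0.50 and 0.15, MRPL49 had 0.12 and 0.58, and MRPL44, which carries an RNase III-like fold near the exit tunnel, had -0.01 and 0.47, so a single siRNA carried each of these means.

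By origin, 71 genes fell in 4 classes and 5 (MRPS18A, MRPS18B, MRPS28, MRPS30 and MRPS36) were left in none. The 45 homologues of bacterial proteins had median log2 ratios of -0.01 with siRNA 1 and -0.03 with siRNA 2. All 4 genes past 0.32 on the lower side on each array were among these 45, out of 76 members. Of all genes, 5.02% were past it in this way. The 26 mitochondria-specific proteins had medians of 0.08 and 0.02, with MRPL54 among them. The small subunit homologues, 15 genes, had the lowest median of the 4 classes with siRNA 2, -0.13, against -0.01 with siRNA 1. These medians differed by less than the SD of the ratios over single genes, which does not measure the precision of a median. No test was made.

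By place in the ribosome, the 6 central protuberance genes had medians of 0.15 and 0.09, and 6 of 6 lay above 0 with siRNA 1 (54.1% of all genes did), between 0.03 and 0.53, and 4 of 6 with siRNA 2 (53.6%). The 8 exit tunnel genes had medians of -0.02 and 0.01. The 3 genes of the S18 family, whose proteins are related to 1 bacterial protein and occupy different sites, were measured by separate probes. MRPS18B had log2 ratios of 0.12 and 0.11, MRPS18C had 0.09 and 0.22, and MRPS18A had 0.25 and -0.25. MRPS36 had 0.27 and 0.11.

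A list was made of 12 genes whose mutations are known to cause inherited mitochondrial disease, and it may leave out other such members. These 12 had median log2 ratios of -0.06 and -0.19. Beside MRPL3, MRPL12, MRPS7 and MRPL44 they included MRPS16, with -0.21 and -0.40 (limma adjusted p = 0.22), MRPS25, with -0.09 and -0.42, MRPS34, with -0.13 and -0.31, and MRPS14, with -0.31 and -0.13. MRPS2 had -0.03 and -0.21, MRPS28 had 0.08 and -0.17, MRPS22 had 0.07 and 0.03, and MRPS23 had 0.11 and 0.02. With siRNA 1 8 of the 12 lay below 0 (45.9% of all genes did), and with siRNA 2 8 did (against 46.4%).

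**Figure D2:**
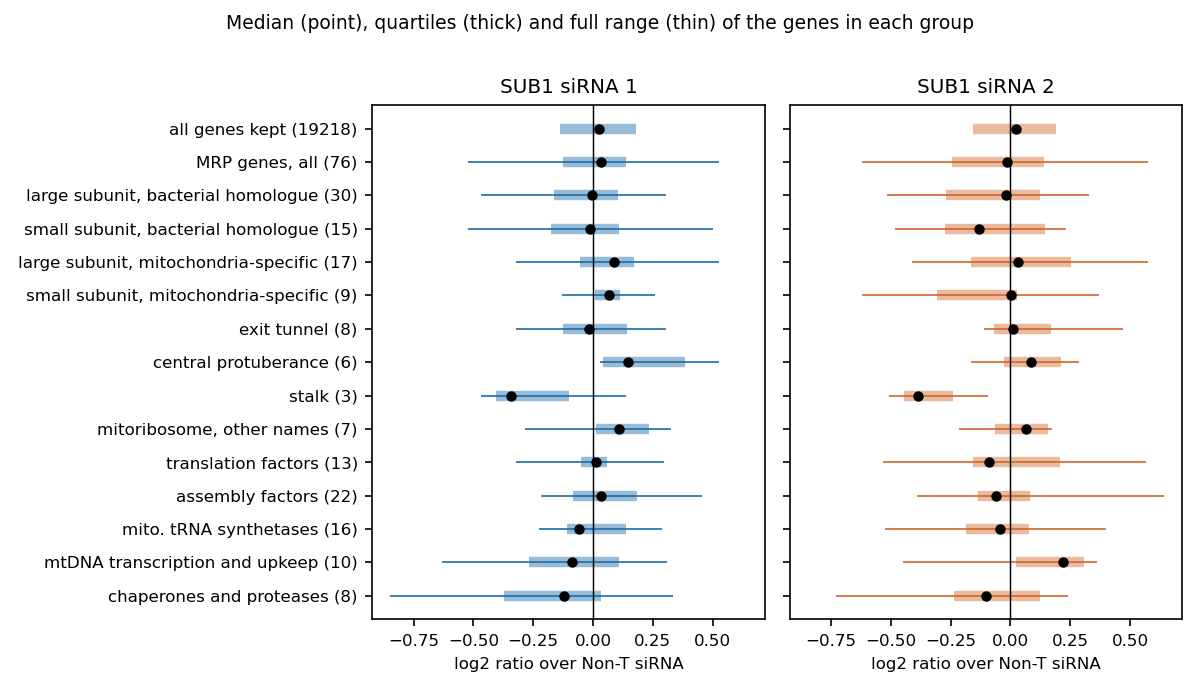
Log2 ratio over Non-T siRNA (horizontal axis) by group of genes, with the number measured in brackets, for siRNA 1 (left) and siRNA 2 (right). Points are medians, thick bars run from the lower to the upper quartile and thin lines show their full range, not drawn for all genes. The medians of the MRP classes lie near 0, and the 3 stalk genes have medians of -0.34 and -0.39.

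The siRNAs gave unlike ratios on some MRP genes. Repeated spots of a probe had a median SD of 0.08 with siRNA 1 and 0.07 with siRNA 2, which covers scatter within an array and not that between cultures or arrays. On 35 of the 76 genes the log2 ratios with both siRNAs were within 0.15, which is 2 such SDs of a single ratio. The share of all genes within 0.15 is not given here, so this count is not read as a trait of the family. On 13 genes they differed by at least 0.32 (17.1%, against 22.5% of all genes). The median absolute difference was 0.164 over the 76 genes and 0.161 over all genes. No MRP gene differed by 2-fold between siRNAs.

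MRPS35, a mitochondria-specific protein of the small subunit, differed most. It read 4663 with Non-T siRNA and 5587 with siRNA 1, but 4068 with Non-T siRNA and 2644 with siRNA 2. The siRNA 1 channel was the highest of the 4 and the siRNA 2 channel the lowest, with log2 ratios of 0.26 and -0.62. MRPS18A followed in the same direction, with 0.25 and -0.25, and MRPL46 of the central protuberance, with 0.44 and -0.05. The second MRPL46 probe gave 0.30 and -0.05. MRPL46 lies 320 bases from MRPS11 in GRCh38.p14, and MRPS11 had 0.13 and 0.15.

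In the opposite direction, MRPS10, a small subunit homologue, read 2103 (Non-T) and 1466 (siRNA 1), and 1731 (Non-T) and 2031 (siRNA 2), on its brightest probe, with log2 ratios of -0.52 and 0.23. MRPL9, which projects from the large subunit, had -0.17 and 0.32, and MRPL44 had -0.01 and 0.47. No test of these differences between siRNAs was possible with 1 array each.

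The Non-T channels varied less between the arrays than the siRNA channels, though not equally on every gene. For the 105 kept probes the log2 difference of the siRNA 2 array over the siRNA 1 array had an SD of 0.09 in Cy3 and of 0.24 in Cy5, against 0.13 and 0.31 over all kept probes. For MRPS35, with the median of the members set to 0, the difference was 0.03 in Cy3 and -0.79 in Cy5, and for MRPS10 it was -0.05 and 0.76. It was -0.07 and -0.48 for MRPL46, -0.08 and 0.48 for MRPL9, and -0.02 and 0.53 for MRPL44. MRPS18A differed in both channels, by 0.18 in Cy3 and -0.26 in Cy5. The part of the shared or separate Non-T extract in the other ratios was not tested.

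**Figure D3:**
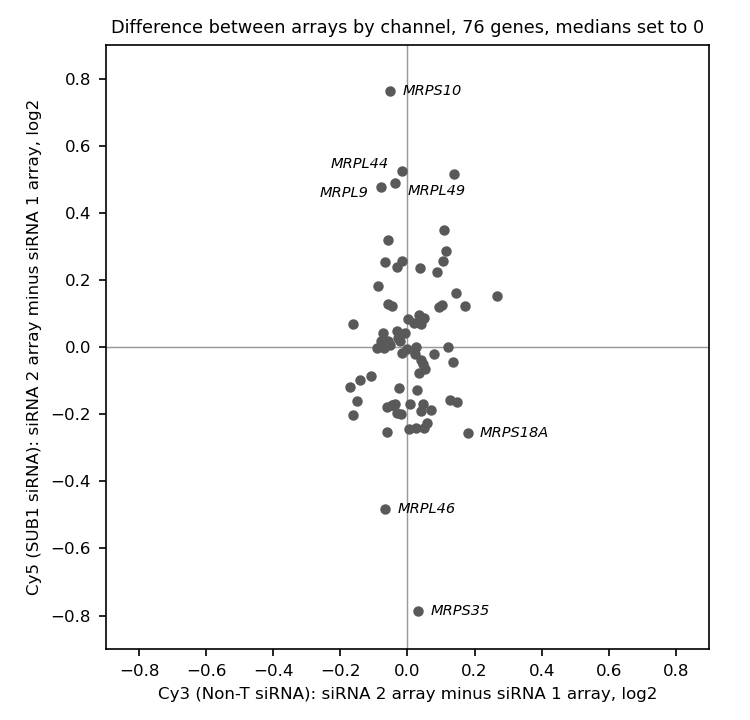
Difference between the siRNA 2 array and the siRNA 1 array in log2 intensity for each of the 76 MRP genes, in the Cy3 channel with Non-T cells (horizontal axis) and the Cy5 channel with SUB1 siRNA cells (vertical axis), each with its median set to 0. The points spread along the Cy5 axis, from -0.79 for MRPS35 to 0.76 for MRPS10, and less along the Cy3 axis.

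For 23 genes more than 1 probe was kept, so that the value could be checked within the array. The means of the probes of a gene had the same sign for 14 genes and different signs for 9 (MRPL49, MRPL45, MRPL38, MRPL50, MRPL42, MRPS6, MRPL52, MRPL33 and MRPL10). Their range within a gene had a median of 0.16 on the log2 scale. Of the genes named above, MRPL3, MRPS12, MRPL20 and MRPL46 kept the sign of their mean on each probe.

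MRPS10 had the widest range, 0.58. Its brightest probe, the downstream-most of the 3, gave -0.52 and 0.23. A second probe, 1231 bases away in hg18 (minus strand), read 1461 (Non-T) and 839 (siRNA 1), and 1177 (Non-T) and 748 (siRNA 2), which gave -0.80 and -0.65. The third probe, 2059 bases away, read 465 and 313.5, and 391 and 302, which gave -0.57 and -0.37. All 3 probes were lower with siRNA 1, and 2 of 3 were lower with siRNA 2, so only the brightest probe gave a ratio above 0 there. Had the second probe been taken for the gene, MRPS10 would have had the lowest mean of the family, -0.73.

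MRPL49 was another such case. Its brightest probe gave 0.12 and 0.58, and the others, which read between 91 and 192, gave 0.06 and 0.07, and -0.08 and 0.02. The high siRNA 2 ratio of MRPL49 therefore rested on 1 probe. MRPL11, MRPL12, MRPL54 and MRPS35 had 1 probe each and could not be checked in this way.

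**Figure D4:**
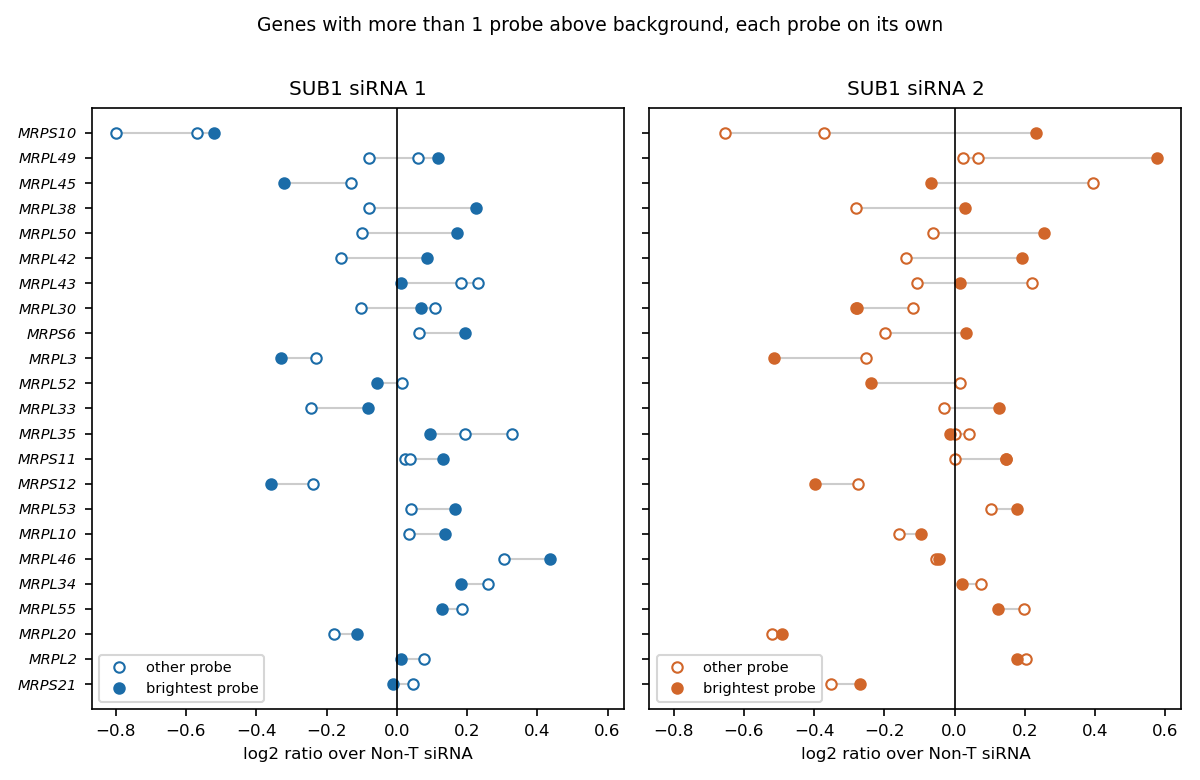
Log2 ratio over Non-T siRNA (horizontal axis) of each kept probe of the 23 MRP genes with more than 1, for siRNA 1 (left) and siRNA 2 (right), ordered by how far the means of the probes lie apart. Filled points are the brightest probe, which stood for the gene, and open points the others. MRPS10 at the top has 1 of 3 probes above 0 with siRNA 2, at 0.23, beside probes at -0.65 and -0.37.

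The other genes of the pathway were described from 7 lists of 87 genes, of which 83 were measured (PPARGC1A, PPARGC1B, NRF1 and MARS2 were not kept). None passed an adjusted p of 0.05 in limma, and 14 had an unadjusted p under 0.05 (16.9%, against 20.9% of all genes). Past 0.32 on each array were 2 of the 83 on the lower side (2.41%, against 5.02%) and 1 on the higher (1.20%, against 4.68%).

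Among the 7 subunits of the mitochondrial ribosome with other names, none reached 0.32 on each array. DAP3, a GTP-binding protein of the small subunit, had log2 ratios of -0.29 and -0.22, and MRPL58, a peptidyl-tRNA hydrolase built into the large subunit, had 0.33 and 0.15. The 7 had medians of 0.11 and 0.06. Among the 13 translation factors and regulators, with medians of 0.01 and -0.09, MTIF2, the initiation factor that brings in the first tRNA, had 0.30 and 0.40 (limma adjusted p = 0.17), and MTRF1, a release factor, had 0.21 and 0.57.

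The 22 assembly factors had medians of 0.03 and -0.06. PTCD1, an RNA-binding protein needed for maturation of the large subunit rRNA, read 1551 with Non-T siRNA and 2103 with siRNA 1, and 1332 with Non-T siRNA and 1837 with siRNA 2. Its log2 ratios of 0.44 and 0.46 made it the only gene of the 7 lists past 0.32 on the higher side on each array (limma adjusted p = 0.14). YBEY, an endoribonuclease, had 0.30 and 0.64. The 16 measured mitochondrial aminoacyl-tRNA synthetases had medians of -0.06 and -0.04, with FARS2, for phenylalanine, at -0.22 and -0.52 and IARS2, for isoleucine, at -0.07 and -0.52.

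Of the 10 genes that transcribe or maintain mitochondrial DNA, MGME1, a nuclease that trims replication ends, read 371 (Non-T) and 240 (siRNA 1), and 291 (Non-T) and 213 (siRNA 2), with log2 ratios of -0.63 and -0.45 (limma adjusted p = 0.13). SSBP1, which coats single-stranded mitochondrial DNA, had 0.31 and 0.29. Of the 8 chaperones and proteases, TRAP1, an HSP90-type chaperone, had -0.37 and -0.73 (limma adjusted p = 0.14) and HSPD1, the matrix chaperonin, had -0.85 and -0.24.

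Among the 7 measured regulators of mitochondrial gene expression, GABPB1, the partner subunit of the ETS factor GABPA, was the only gene of the lists past 2-fold. It read 620 with Non-T siRNA and 563 with siRNA 1, and 557 with Non-T siRNA and 275 with siRNA 2. The low channel was that of siRNA 2, with log2 ratios of -0.14 and -1.02 (limma adjusted p = 0.25). GABPA and YY1, named here because their letters were searched in the promoters, had 0.13 and 0.27, and -0.17 and 0.01. MYC, a transcription factor with many ribosome and mitochondrial targets, had -0.57 and -0.16.

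For scale, the 84 cytosolic ribosomal proteins had medians of -0.08 and -0.02 with SDs of 0.27 and 0.32, and the 79 nuclear subunits of the respiratory chain and ATP synthase had medians of 0.11 and -0.06 with SDs of 0.22 and 0.36. The median of the MRP genes lay between those of these groups with siRNA 1 (0.03) and was close to that of the cytosolic proteins with siRNA 2 (-0.02). No test of these differences was made.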

How the data were processed

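Processed data of 2 dual-colour arrays were analysed, 1 for each SUB1 siRNA against Non-T siRNA, with groups taken from the sample labels. The authors scanned the arrays and deposited, from Agilent Feature Extraction 9.5.1.1, the intensity and local background of each spot in both channels with flags for outliers and for spots well above background (each 0 or 1). The authors also deposited a table of log2 ratios, which their methods describe as loess-normalised with agilp. It correlated over probes with Cy5/Cy3 ratios computed here (r = 0.958 and 0.970), which gives its direction. Its medians were -0.01 and -0.01, and its scale is log2 by the methods alone. It served as an alternative.

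Mean signals were corrected by normexp (offset 50) and then normalised within the array by loess (span 0.3), with limma 3.58.1 and R 4.3.3. Spots flagged as outliers (112 and 100) were dropped. Probes stayed in if, on both arrays, a share of 0.5 or more of their spots stood well above background in 1 channel or both. The brightest probe stood for each gene. Ratios are SUB1 siRNA (Cy5) over Non-T siRNA (Cy3). Values of 1 array were called at 2-fold, with a log2 ratio of 0.32 as a second threshold, and have no p-value. The mean of both was tested against 0 by limma (eBayes, two-sided, Benjamini-Hochberg over 19218 genes). The labels name no separate cultures, so its p-values rest on the spread between these arrays, and the number of arrays limits the precision. The eBayes step draws the variance of each gene towards a prior over all genes. That prior has more weight in the SEs and p-values than the spread of the gene's own ratios. The offset compresses the ratios of dim probes, and loess sets the typical ratio at each intensity near 0. The procedure was tested on simulated data.

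Alternatives covered background correction, signal, normalisation, dim-probe filter, outliers, the authors' table, the choice of probe and the prior. Gene names came from the array and a RefSeq table of GRCh38.p14, and 13129 of the genes kept matched it. Probe positions are in hg18, per the file headers, and promoters in GRCh38.p14. The windows came from a RefSeq promoter table. The members and gene lists were chosen with earlier results of these data known. Genes were named by a rule: the 8 lowest and 8 highest means, the 3 largest differences between siRNAs in each direction, all past a threshold on both arrays, the stalk, disease and S18 genes with MRPS12, MRPS30 and MRPS36, genes whose probes differed by over 0.5, and the 2 largest of each pathway list. Genes named for their probes, neighbours or motif were chosen after their values were seen.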

Additional observations from a re-analysis of the deposited data

Results flagged for a closer look

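Genes were taken up here when the log2 ratios of the siRNAs had opposite signs and each was larger than 0.15, which is 2 SDs of repeated spots within an array and not a measure of the spread between cultures. With siRNA 2 minus siRNA 1, MRPS35 differed by -0.882 (0.26 and -0.62), MRPS10 by 0.751 (-0.52 and 0.23), MRPS18A by -0.501 (0.25 and -0.25) and MRPL9 by 0.494 (-0.17 and 0.32). The differences were not tested, since each siRNA had 1 array. The MRPS10 value is that of its brightest probe, and its other probes differed by 0.15 and 0.20, with ratios below 0 on each array. MRPS35 had 1 probe.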

How the results depend on the processing

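The count of MRP genes past 2-fold (0) and past an adjusted p of 0.05 (0) held under all alternatives run for them. Centring each array on its median, without loess, moved the medians to 0.31 (siRNA 1), 0.24 (siRNA 2) and 0.27 (mean of both), against 0.03, -0.02 and 0.01, and the medians of all genes to 0.13 and 0.12, so that the MRP medians lay 0.18 and 0.12 above those. It left 0 MRP genes past a log2 ratio of 0.32 on the lower side on each array and 23 on the higher, with 36 at an unadjusted p under 0.05. Its cause was not tested. The 4 genes lower on each array became 1 with the authors' log2 ratios and 2 with the mean of all kept probes, and the 1 higher gene became 3 with the authors' log2 ratios. The 11 genes at an unadjusted p under 0.05 became 3 with Feature Extraction's processed signals, 18 without a filter on dim probes and 17 with the mean of all kept probes. Over all genes the same counts were 4013 of 19218 in the main setting, 5707 with median centring and 3902 with processed signals. They were 5333 of 30482 without the filter and 3997 of 19218 with the mean of all kept probes. The family's share was below that of all genes in the main setting and with processed signals. It was above that of all genes under the other 3 settings. The median over both arrays was 0.01, and ranged from -0.02 without siRNA 1 to 0.03 without siRNA 2. Of the genes past 0.32 on each array, MRPL54 stayed so in all 9 alternatives, MRPL11 in 8, MRPL12 in 7, MRPS12 in 6 and MRPL3 in 4. None of these means changed sign. Of the 33 named MRP genes, 9 had a mean below 0 that lay above 0 with median centring, namely MRPS24 (0.05), MRPL20 (0.05), MRPS25 (0.06), MRPS34 (0.13), MRPS35 (0.10), MRPS10 (0.10), MRPS2 (0.14), MRPS28 (0.26) and MRPS18A (0.22). The means of MRPS28, MRPS18A and MRPL10, within 0.05 of 0, also changed sign under other alternatives. Taking the dimmest kept probe of each gene, chosen after seeing the data, left 3 lower and 1 higher. No paired analysis was possible because each siRNA has 1 array and the pairing with Non-T cells is already within it. The number of arrays and dim probes, such as those of MRPL1 and MRPL2, limit what can be seen.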

Other observations

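The array also carries probes for transcripts of mitochondrial DNA, whose mRNAs the mitochondrial ribosome translates. They were looked at after the values of the MRP genes were seen. By position, 18 kept probes lie on the mitochondrial chromosome, and their names on the array include CYTB, ND1, ND2, ND3 and ND6, several accessions and the nuclear gene name TMEFF2. Some share sequence or target, and probes are not replicates. Which of the probes named by accessions detect mRNA and which rRNA was not determined. Their log2 ratios ran from -0.36 to 0.65 with a median of 0.21 with siRNA 1, and from -0.81 to 0.39 with a median of -0.14 with siRNA 2. With siRNA 1 15 of the 18 lay above 0 (52.5% of all kept probes did), and with siRNA 2 16 lay below 0 (47.6%). The exceptions with siRNA 2 were the probe named TMEFF2 (0.21) and 1 named by an accession (0.39). On all 18 probes the ratio with siRNA 2 was below that with siRNA 1, by a median of 0.32, and this held on 12837 of all 25673 kept probes. ND2, a subunit of complex I, had 0.49 and -0.01, and the brighter ND3 probe had 0.05 and -0.49. The probes of CYTB, a subunit of complex III, had -0.36 and -0.81, and -0.11 and -0.43. The difference between siRNAs was not tested, with 1 array each.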
